A study of Mus musculus with 8 samples.

Results

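The TNF family is the set of cytokines related to tumour necrosis factor, together with the receptors that bind them and the adaptor proteins that carry the signal inside the cell. Its expression was examined in whole pancreas of mice with and without the BDC2.5 transgene, which carries the rearranged receptor of a CD4+ T cell clone able to cause diabetes. A gene belonged to the family if its platform annotation gave a single symbol that starts with Tnfrsf or Tnfsf, or that is Tnf, Lta, Ltb, Fas, Fasl, Cd27, Cd40, Cd40lg, Ltbr, Ngfr, Tradd, Ripk1, Fadd or a Traf gene from Traf1 to Traf6. A gene with several probe sets was represented by the brightest of them, judged by its average over the 8 arrays. This gave 32 genes of the 8251 measured with a single symbol. They were 10 ligands, 3 receptors with a death domain, 11 receptors that bind TRAF adaptors directly, 1 decoy receptor and 7 adaptors. Ngfr, Ripk1 and Traf3, for which the annotation named no probe set alone, are not analysed here.

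The 4 groups, with 2 arrays each, were NOD and NOD.scid mice and the same backgrounds with the transgene, named BDC2.5/NOD and, with scid, BDC2.5/NOD.scid, all sampled at 3 weeks of age. NOD mice develop autoimmune diabetes spontaneously. The scid mutation of the NOD.scid groups prevents rearrangement of antigen receptor genes, so that T cells of a BDC2.5/NOD.scid mouse depend on the rearranged transgene and B cells are missing. All groups share the NOD background, and no group lies outside it. Per the labels, RNA came from pooled pancreata, with 6 animals in each of 2 isolations. It is not stated whether replicate arrays had pools of their own, so p-values reflect array-to-array spread alone, possibly technical. Precision is limited by how few arrays there are. In whole pancreas, fewer cells of a type and less RNA per cell cannot be told apart.

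TNF itself is made mainly by activated macrophages and T cells. It binds the receptors TNFR1 (gene Tnfrsf1a), which is found on most cell types and carries a death domain, and TNFR2 (gene Tnfrsf1b), which is found mainly on immune and endothelial cells. TNFR1 recruits TRADD, and TNFR2 recruits TRAF adaptors directly. The signal then passes to NF-kB, a family of transcription factors held in the cytoplasm by inhibitors such as IkB-alpha (gene Nfkbia), to the kinases JNK and p38, or to caspases through FADD. In islet inflammation the family is known for cytokine damage to beta cells and for co-stimulation of T cells.

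Promoter windows are shown for the family gene past the threshold, Tnfrsf1b, and for Tnfrsf4 and Tnfrsf18. The last 2 are neighbours on chromosome 4 in the RefSeq gene order and had no overlap between arrays with and without the transgene. Also shown are 2 NF-kB pathway genes past the threshold with the transgene, Nfkbia in NOD.scid and Nfkb2 in NOD. Each window runs from 250 bases before the annotated start to 50 after it, 5′ to 3′ on the gene's strand, from RefSeq on GRCm38.p6. Capitals mark matches to the NF-kB consensus motif, searched on both strands. The windows are Tnfrsf1b at chr4:145246821-145247120 (minus strand), Tnfrsf18 at chr4:156026072-156026371 (plus), Tnfrsf4 at chr4:156013445-156013744 (plus), Nfkbia at chr12:55492598-55492897 (minus) and the first of 3 windows of Nfkb2 at chr19:46304487-46304786 (plus).
Tnfrsf1b: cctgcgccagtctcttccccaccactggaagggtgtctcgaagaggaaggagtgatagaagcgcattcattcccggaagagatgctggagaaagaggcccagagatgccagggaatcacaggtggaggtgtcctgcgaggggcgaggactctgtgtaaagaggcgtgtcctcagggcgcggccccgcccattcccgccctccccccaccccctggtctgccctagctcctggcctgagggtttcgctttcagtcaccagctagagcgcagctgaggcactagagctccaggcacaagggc
Tnfrsf18: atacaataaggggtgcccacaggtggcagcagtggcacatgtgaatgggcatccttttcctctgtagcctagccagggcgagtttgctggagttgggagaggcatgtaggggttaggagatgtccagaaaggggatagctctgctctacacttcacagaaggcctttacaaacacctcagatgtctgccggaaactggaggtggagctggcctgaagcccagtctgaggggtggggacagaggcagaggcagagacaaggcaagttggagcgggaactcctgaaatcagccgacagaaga
Tnfrsf4: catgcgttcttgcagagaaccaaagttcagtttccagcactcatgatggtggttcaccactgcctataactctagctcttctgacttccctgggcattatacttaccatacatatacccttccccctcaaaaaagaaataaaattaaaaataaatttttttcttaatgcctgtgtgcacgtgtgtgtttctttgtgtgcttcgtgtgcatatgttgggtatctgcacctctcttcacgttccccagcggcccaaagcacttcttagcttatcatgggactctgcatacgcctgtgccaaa
Nfkbia: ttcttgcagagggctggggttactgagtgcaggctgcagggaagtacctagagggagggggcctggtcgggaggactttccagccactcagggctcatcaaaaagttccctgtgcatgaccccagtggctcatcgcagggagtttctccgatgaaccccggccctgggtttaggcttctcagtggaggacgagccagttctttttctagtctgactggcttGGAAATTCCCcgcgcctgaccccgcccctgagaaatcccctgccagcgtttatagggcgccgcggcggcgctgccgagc
Nfkb2: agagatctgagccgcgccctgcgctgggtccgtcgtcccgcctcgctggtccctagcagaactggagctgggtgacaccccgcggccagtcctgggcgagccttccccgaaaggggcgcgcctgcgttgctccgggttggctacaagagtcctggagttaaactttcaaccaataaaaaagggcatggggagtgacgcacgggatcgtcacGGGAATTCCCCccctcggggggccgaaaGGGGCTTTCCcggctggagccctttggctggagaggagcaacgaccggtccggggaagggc

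The 3 receptor windows held no match, the Nfkbia window held 1 match and this Nfkb2 window held 3, of which a pair overlapped on opposite strands. Across RefSeq, 2581 of 27025 genes with a window (9.55%) had a match in at least 1 window. Of the 32 family genes, 26 had a window and 3 of those held a match (11.5%), namely Ltb, Tnfrsf8 and Tnfrsf9. Of the pathway genes downstream of the receptors, described further on, 20 of 72 with a window held a match (27.8%). The pathway lists include NF-kB genes and genes known to be induced by TNF, so their share is not independent of that choice. A match describes letters in these windows only.

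The deposited table held 12488 probe sets, of which 66 were array controls and 12422 were tested. Array medians lay between 4.24 and 4.30 on the log2 scale, and replicate arrays correlated with r between 0.9912 and 0.9961 across probe sets. A control for the middle of the beta-actin transcript was above 8.5 on the arrays BDC2.5/NOD.scid replicate 2, NOD.scid replicate 1 and NOD replicate 1 and below it on the other 5. Differences within these sets of arrays are given for the genes the results turn on. For the transgene in NOD.scid each such value is 1 array minus 1 array. The mean of the low and high values is the main difference itself, so they add no independent support. The mean log2 value over 5 acinar cell genes, which mark pancreas, was 13.07 to 13.19 on every array. The mean over 14 macrophage and monocyte genes was 5.19 to 5.30 in BDC2.5/NOD.scid, against 4.49 to 4.72 elsewhere. The mean over 11 T cell genes lay between 4.50 and 4.65 on the 8 arrays, and 0 of the 11 passed the threshold in any comparison of 2 groups. Over all genes, 0.824% to 6.08% passed in a given comparison and direction. The neutrophil list was 5.72 to 5.73 in NOD.scid, against 4.40 to 4.77 elsewhere. The beta cell list was 5.19 to 5.54 with the transgene and 5.92 to 6.12 without it. The fibroblast list, with 6 genes measured, was 6.11 to 6.12 in BDC2.5/NOD and 6.46 to 6.48 in BDC2.5/NOD.scid, below its 6.61 to 6.80 without the transgene. With the transgene 5 of the 6 fell in NOD and 3 in NOD.scid, where 4.56% and 4.51% of all genes fell.

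The family was measured around the array's median, at the low end of its range. The median over all tested probe sets was 4.27 on the log2 scale, and 16 of the 32 genes had a mean above it and 16 at or below it. Low values of this kind may be close to background, where a difference in log2 value can understate a difference in RNA. Tests were made with limma on all arrays, with Benjamini-Hochberg adjustment over the 12422 probe sets, and a gene is said to have risen or fallen when its adjusted p was under 0.05. All differences below are on the log2 scale.

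**Figure D1:**
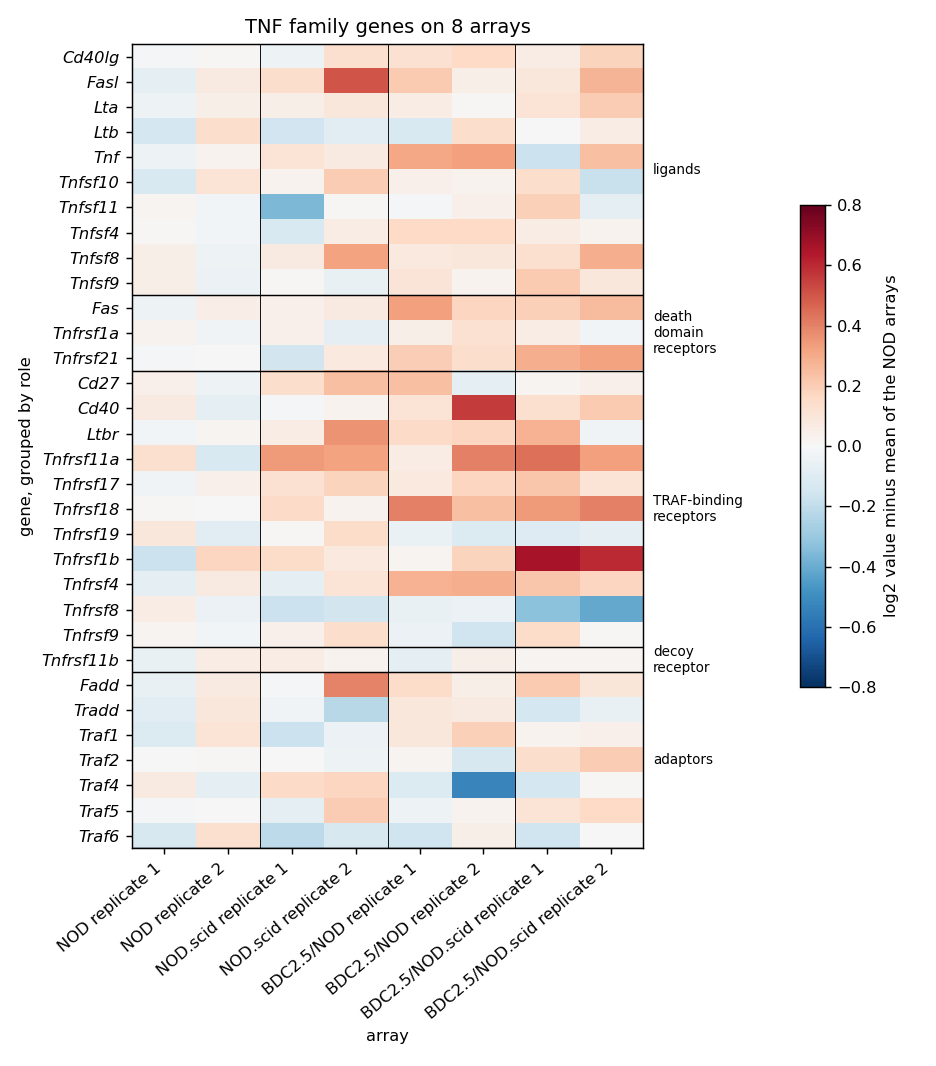
Each row is a TNF family gene, grouped by role, and each column an array. Colour gives the log2 value minus the mean of the 2 NOD arrays. Tnfrsf1b stands out on both BDC2.5/NOD.scid arrays, and Tnfrsf4 and Tnfrsf18 are above the NOD mean on all 4 arrays with the transgene.

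Setting BDC2.5/NOD.scid against NOD.scid asks what the transgenic T cells are accompanied by in mice that otherwise lack T and B cells. Of the 32 family genes, 1 rose, Tnfrsf1b, and 0 fell. Over all 8251 genes, 2.46% rose and 4.51% fell. At an unadjusted p under 0.05 there were 4 family genes, 12.5% of the family, against 18.7% of all genes. The median difference was 0.06 over the family and -0.01 over all genes. In BDC2.5/NOD against NOD, 0 of the 32 rose and 0 fell in limma's test, where 4.16% of all genes rose and 4.56% fell. At an unadjusted p under 0.05 there were 6 family genes, 18.8%, against 25.1% of all genes, and the median difference was 0.08 against 0.04. These shares were below or near those of all genes.

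The scid mutation was compared at fixed transgene status. Without the transgene, 0 of the 32 family genes rose and 0 fell in NOD.scid against NOD by limma, and 2 had an unadjusted p under 0.05. Over all genes 0.824% rose, 1.90% fell and 15.6% had an unadjusted p under 0.05. With the transgene, 1 family gene rose in BDC2.5/NOD.scid against BDC2.5/NOD, again Tnfrsf1b, and 0 fell. The shares over all genes were 3.16% higher and 6.08% lower. At an unadjusted p under 0.05 there were 4 family genes against 22.4% of all genes. This comparison and the transgene comparison in NOD.scid share the BDC2.5/NOD.scid arrays, so the repeated call is not independent. The interaction, which is the transgene difference in NOD.scid minus that in NOD, called 0 family genes in either direction by limma, with 1 at an unadjusted p under 0.05. The shares over all genes were 2.48% higher, 2.90% lower and 18.0% at an unadjusted p under 0.05.

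Tnfrsf1b encodes TNFR2, the receptor without a death domain. Its log2 values were 3.03 and 3.37 in NOD, 3.35 and 3.28 in NOD.scid mice, 3.22 and 3.38 in BDC2.5/NOD, and 3.86 and 3.80 in BDC2.5/NOD.scid. Both BDC2.5/NOD.scid arrays lay above the other 6, which overlapped one another. With the transgene in NOD.scid it rose by 0.51 (SE 0.121, 95% interval 0.25 to 0.78, 1.43-fold, adjusted p = 0.0245 in limma). Against BDC2.5/NOD it was higher by 0.52 (SE 0.121, 95% interval 0.26 to 0.79, 1.44-fold, adjusted p = 0.0187 in limma). In NOD the transgene difference was 0.10, with an adjusted p of 0.686 in limma. The difference between the 2 transgene effects was 0.41 (SE 0.172, 95% interval 0.04 to 0.79, adjusted p = 0.238 in limma), so an effect particular to the scid background was not shown.

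The Tnfrsf1b probe set was dim, with a mean over the 8 arrays of 3.41. Within arrays of low and of high actin control value, the transgene difference in NOD.scid was 0.58 and 0.45, each 1 array minus 1 array. Leaving out any of the 4 arrays compared kept the difference between 0.48 and 0.55 but brought limma's adjusted p to between 0.0704 and 0.111, and the call against BDC2.5/NOD was lost in the same way, with an adjusted p of 0.0682 to 0.195. Of 14 macrophage and monocyte markers, 7 also rose in BDC2.5/NOD.scid, both against NOD.scid and against BDC2.5/NOD, and 0 of the 14 fell. Over all genes 2.46% and 3.16% rose, and 4.51% and 6.08% fell. The 7 were Lyz2, Cd14, C1qa, C1qc, Lgals3, Cd68 and Csf1r. Lyz2, the lysozyme of myeloid cells, rose by 1.95 and Csf1r, the receptor of the macrophage growth factor CSF1, by 0.44 with the transgene in NOD.scid. The lowest macrophage list mean in BDC2.5/NOD.scid was 5.19 and the highest elsewhere 4.72. Their part in the Tnfrsf1b difference was not tested.

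**Figure D2:**
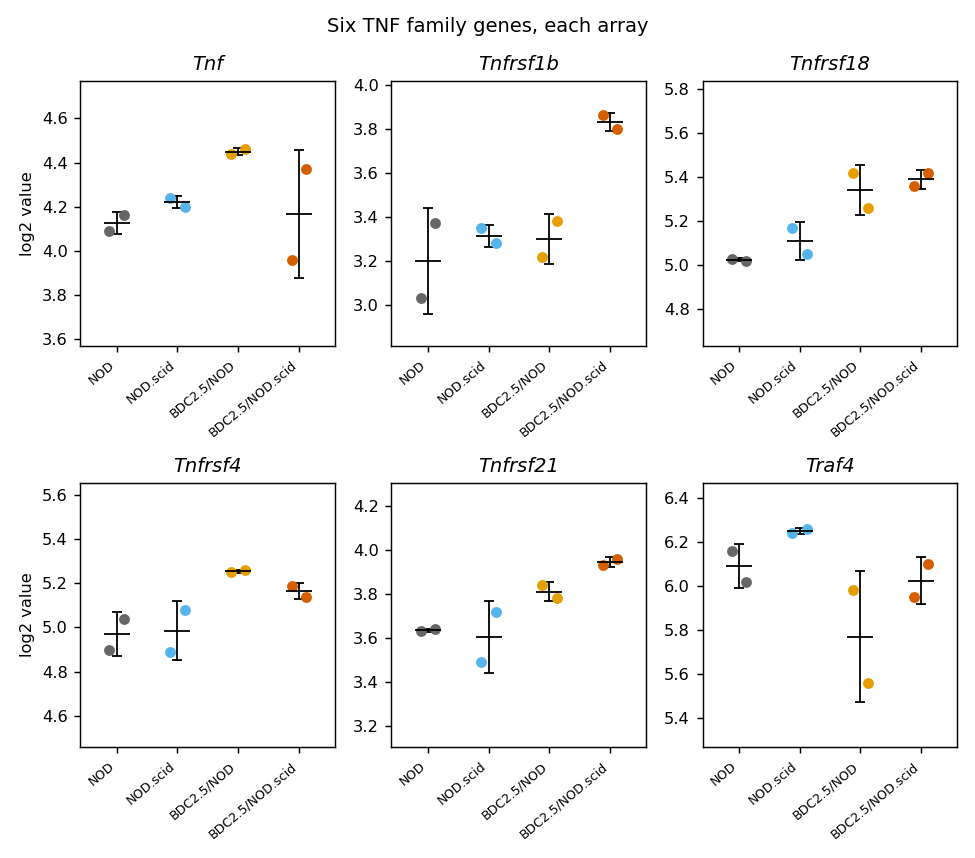
Log2 values of 6 TNF family genes on each array, with the group mean and SD (n = 2 arrays per group) as bars; the vertical axes do not start at 0. Tnfrsf1b is highest on both BDC2.5/NOD.scid arrays, and the arrays with the transgene lie above those without it for Tnfrsf18, Tnfrsf4 and Tnfrsf21.

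Tnfrsf18 encodes GITR, a co-stimulatory receptor that is abundant on regulatory and activated T cells. Its log2 values were 5.03 and 5.02 in NOD and 5.17 and 5.05 in NOD.scid. They were 5.42 and 5.26 in BDC2.5/NOD and 5.36 and 5.42 in BDC2.5/NOD.scid. All 4 arrays with the transgene lay above all 4 without it. Within each background the difference missed the threshold, at 0.28 in NOD.scid (SE 0.0977, adjusted p = 0.136 in limma) and 0.32 in NOD (SE 0.0977, adjusted p = 0.0687 in limma). Within arrays of low and high actin control value the NOD.scid difference was 0.31 and 0.25. The interaction was -0.04, with a 95% interval of -0.34 to 0.26.

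Tnfrsf4 encodes OX40, another co-stimulatory receptor of activated T cells, and is the gene next to Tnfrsf18. Its log2 values were 4.90 and 5.04 in NOD, 4.89 and 5.08 in NOD.scid mice, 5.25 and 5.26 in BDC2.5/NOD, and 5.19 and 5.14 in BDC2.5/NOD.scid. The arrays with and without the transgene did not overlap. The transgene difference was 0.18 in NOD.scid (adjusted p = 0.399) and 0.28 in NOD (adjusted p = 0.111), neither past limma's threshold.

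Because several receptors had the same sign in both backgrounds, the transgene difference averaged over NOD and NOD.scid was also tested, a comparison chosen after seeing the data. By limma, 3 of the 32 family genes rose in it (9.38%) and 0 fell when all 8 arrays were used, where 4.44% of all genes rose and 6.93% fell. Tnfrsf18 rose by 0.30 (SE 0.0691, 95% interval 0.15 to 0.45, adjusted p = 0.0156 in limma). Tnfrsf21, which encodes the death receptor DR6, rose by 0.26 (SE 0.0743, adjusted p = 0.0476 in limma). Tnfrsf1b rose by 0.31 on average (SE 0.0858, adjusted p = 0.0399 in limma), although its arrays with and without the transgene overlapped. Tnfrsf4 was higher by 0.23 with an adjusted p of 0.058 in limma. Without BDC2.5/NOD replicate 1, Tnfrsf18 was at 0.26 with an adjusted p of 0.1 in limma, and without any 1 of the other 7 arrays it stayed past it. Without BDC2.5/NOD replicate 1 the family genes past the threshold were instead Cd40, at 0.36, and Traf4, at -0.38. When single arrays were left out, Tnfrsf1b stayed past the threshold only without NOD replicate 2 and Tnfrsf21 only without NOD.scid replicate 2, and Tnfrsf21 also missed it with quantile normalization or centred array medians.

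In 5 family genes, all of them receptors, all 4 arrays with the transgene lay above all 4 without it. They were Cd40, Fas, Tnfrsf4, Tnfrsf18 and Tnfrsf21, 15.6% of the family, against 5.51% of all genes. For 0 family genes did all arrays with the transgene lie below, against 6.02% of all genes. Tnfrsf21 was measured at 3.63 and 3.64 in NOD, 3.49 and 3.72 in NOD.scid mice, 3.84 and 3.78 in BDC2.5/NOD, and 3.93 and 3.96 in BDC2.5/NOD.scid. Fas, which encodes the receptor that Fas ligand uses to kill cells, lay between 2.47 and 2.58 without the transgene and between 2.68 and 2.84 with it, a dim signal. A control probe set that is also annotated to Fas, left out of the tests, overlapped between the groups at 2.94 to 3.46. Cd40, the receptor on antigen-presenting cells for CD40 ligand, was 4.14 to 4.29 without the transgene and 4.33 to 4.78 with it, and BDC2.5/NOD replicate 2 was the highest array.

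In the averaged comparison 0 of the 11 T cell markers passed the threshold. Of these, 10 were above 0, where 54.9% of all genes were. An unadjusted p under 0.05 was found for 4, but the share over all genes was not taken for this comparison. With the transgene in NOD.scid it was found for 2 of the 11 and in NOD for 1, where 18.7% and 25.1% of all genes had one. The T cell list mean was 4.50 to 4.57 on the arrays without the transgene and 4.57 to 4.65 on those with it. It was 4.50 to 4.53 in NOD and 4.51 to 4.57 in NOD.scid, which lacks T cells. The list mean thus did not separate NOD.scid from NOD. Whether the list could register the T cells present in NOD pancreas at 3 weeks was not tested. The list of regulatory and activated T cell genes, with 5 measured, had means of 2.54 to 2.71 without the transgene and 2.64 to 2.69 with it. The part of T cell number in the receptor differences was not tested, nor was that of the fibroblast genes, whose list mean was lower with the transgene.

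Of the family genes that missed the threshold in the 5 planned comparisons, Tnfrsf8 had the smallest adjusted p. It encodes CD30, an activation receptor of lymphocytes. It was measured at 5.19 and 5.08 in NOD, 4.96 and 4.98 in NOD.scid mice, 5.07 and 5.08 in BDC2.5/NOD, and 4.80 and 4.72 in BDC2.5/NOD.scid. With the transgene, the scid difference was -0.32 (adjusted p = 0.0589 in limma), with both BDC2.5/NOD.scid arrays the lowest. A second Tnfrsf8 probe set had the opposite sign at 0.15 (adjusted p = 0.424), so the gene's direction was not settled. Cd27, a co-stimulatory receptor of T cells, also had probe sets of opposite sign with the transgene in NOD.scid, at -0.16 for the brighter and 0.39 for the other (adjusted p = 0.535 and 0.0784). Tnfrsf11a, which encodes RANK, had its largest difference between NOD.scid and NOD, at 0.32 (adjusted p = 0.259). Ltbr, the lymphotoxin beta receptor, Tnfrsf9 (4-1BB), Tnfrsf17 (BCMA, a receptor of plasma cells) and Tnfrsf19 did not pass the threshold in any comparison.

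Tnfrsf1a, the TNFR1 gene, was 5.39 to 5.59 over the 8 arrays. Its differences were 0.04 with the transgene in NOD.scid and 0.08 in NOD, with adjusted p of 0.891 and 0.648 in limma. Its second probe set differed by 0.05 and 0.04. Tnfrsf11b encodes osteoprotegerin, the soluble decoy for RANK ligand, and was the most even of the receptors at 2.70 to 2.83, with differences between -0.02 and 0.04 in the 4 comparisons of 2 groups.

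**Figure D3:**
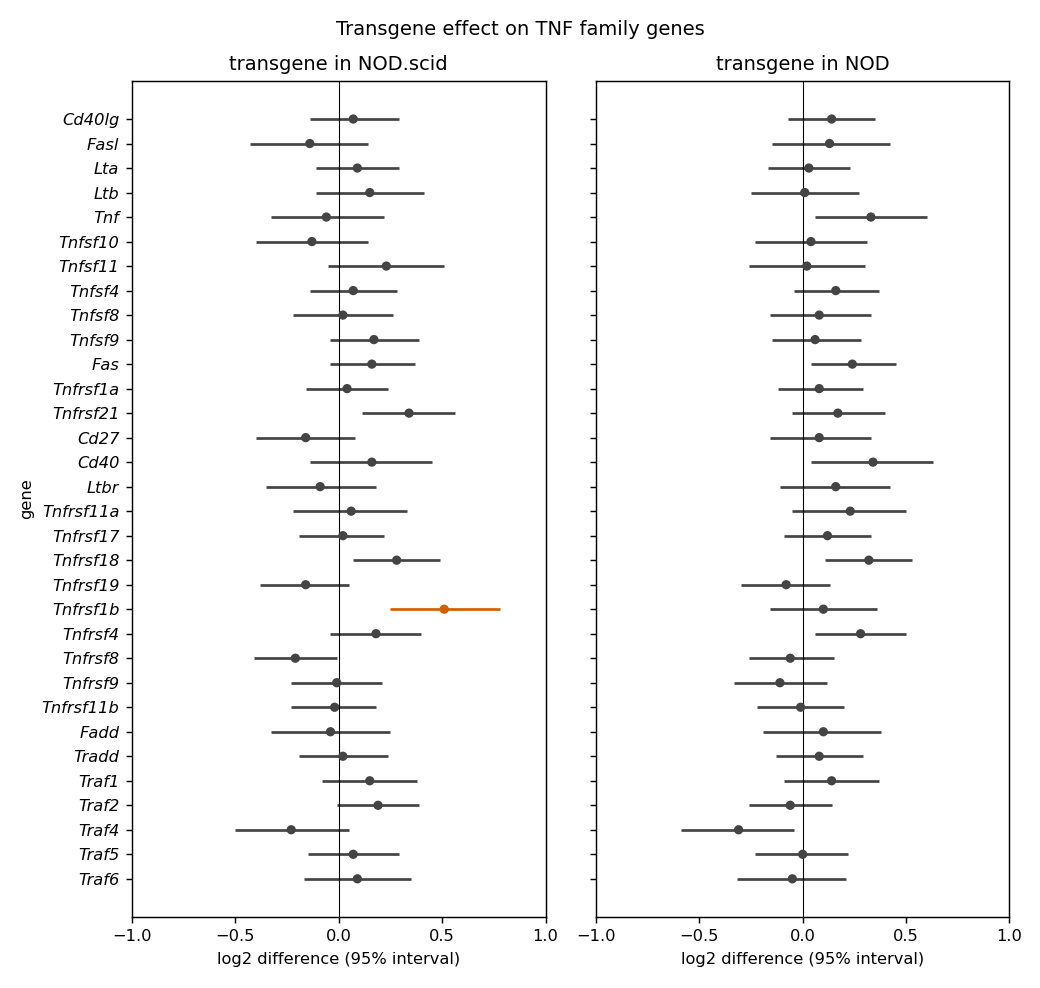
Transgene difference in log2 value for each TNF family gene with its 95% interval from limma (all 8 arrays), in NOD.scid on the left and NOD on the right. The gene past the adjusted threshold, Tnfrsf1b in NOD.scid at 0.51, is in orange, and the other points lie between -0.31 and 0.34.

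None of the 10 ligands passed limma's threshold in any of the 5 planned comparisons or in the average. Over all genes, 0.824% to 6.93% passed in a given comparison and direction. Tnf itself was 4.09 and 4.16 in NOD, 4.24 and 4.20 in NOD.scid mice, 4.44 and 4.46 in BDC2.5/NOD, and 3.96 and 4.37 in BDC2.5/NOD.scid. Both BDC2.5/NOD arrays were the highest, and the 2 BDC2.5/NOD.scid arrays were far apart. With the transgene in NOD the difference was 0.33 (SE 0.126, adjusted p = 0.135 in limma), and in NOD.scid it was -0.06 (SE 0.126, 95% interval -0.33 to 0.22, adjusted p = 0.889 in limma). Within the actin sets the NOD.scid value was -0.25 and 0.13, of opposite sign. The interaction was -0.39 (95% interval -0.77 to 0.00, adjusted p = 0.302 in limma). With the actin split as a term in the fit, the NOD difference of Tnf was 0.39 and passed the threshold (adjusted p = 0.0476 in limma).

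Lta and Ltb, which encode the lymphotoxins and flank Tnf on chromosome 17, were 5.01 to 5.25 and 4.56 to 4.85 over the 8 arrays. A second Lta probe set was 4.53 and 4.69 in BDC2.5/NOD against 4.22 and 4.32 in NOD, a difference of 0.34 with an adjusted p of 0.0735 in limma, whereas the brighter Lta probe set differed by 0.03. Fasl, the ligand of Fas on cytotoxic T cells, was 3.93 on NOD.scid replicate 2, above its range of 3.35 to 3.70 elsewhere. Its scid difference without the transgene, 0.32, was the largest of a ligand there (adjusted p = 0.271). Cd40lg, which encodes CD40 ligand of helper T cells, and Tnfsf4, the OX40 ligand gene, lay between 2.80 and 3.02 and between 2.60 and 2.88. Tnfsf8 (CD30 ligand), Tnfsf9 (4-1BB ligand), Tnfsf10 (TRAIL) and Tnfsf11 (RANK ligand) differed by -0.17 to 0.23 in the 4 comparisons of 2 groups.

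The adaptors likewise held no gene past the threshold. Traf4, a TRAF adaptor expressed in epithelia, was 6.16 and 6.02 in NOD, 6.24 and 6.26 in NOD.scid mice, 5.98 and 5.56 in BDC2.5/NOD, and 5.95 and 6.10 in BDC2.5/NOD.scid. BDC2.5/NOD replicate 2 was the lowest array, and the arrays with and without the transgene overlapped. The transgene difference was -0.23 in NOD.scid (SE 0.127, adjusted p = 0.406 in limma) and -0.31 in NOD (SE 0.127, adjusted p = 0.155 in limma). Within the actin sets the NOD.scid value was -0.31 and -0.14. A second Traf4 probe set differed by -0.12 in both backgrounds. Tradd, the adaptor of TNFR1, was 7.61 to 7.92. Fadd, which links death receptors to caspase-8, and Traf1, Traf2, Traf5 and Traf6 differed by at most 0.23 in size in the 4 comparisons of 2 groups. This holds for the brightest probe set of each gene. A further Traf6 probe set differed by 0.31 in BDC2.5/NOD.scid against BDC2.5/NOD (adjusted p = 0.111 in limma), and another by -0.07.

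Over the genes not past the threshold, the 95% intervals give, gene by gene, the differences in array value that array-to-array spread left room for. They are not joint over the genes. They cover neither spread between mice, if the replicates share a pool, nor RNA differences understated near background. For the transgene, the widest bounds were -0.50 to 0.56 in NOD.scid and -0.59 to 0.63 in NOD. For scid they were -0.45 to 0.61 without the transgene and -0.56 to 0.53 with it. In data simulated from these arrays for the transgene in NOD.scid, 77.6% of probe sets changed by 0.5 and 100% of those changed by 1 were recovered. The simulation used normal noise at limma's estimated spread and planted larger changes too, so recovery in real arrays may be lower.

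The pathway below the receptors was described with 5 lists of textbook genes, 79 measured in all. The lists were chosen with earlier results of these data known. Their counts beside the shares over all genes are therefore descriptive and not an independent test. With the transgene in NOD.scid 5 rose and 1 fell, where 2.46% of all genes rose and 4.51% fell. In NOD 5 rose and 2 fell, where 4.16% and 4.56% of all genes did. With scid, 0 rose and 2 fell without the transgene (0.824% and 1.90% of all genes), and 7 rose and 3 fell with it (3.16% and 6.08% of all genes). In the interaction 6 were higher and 1 was lower (2.48% and 2.90% of all genes).

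The NF-kB list, with 19 of 24 genes measured, had 1 gene that rose with the transgene in NOD.scid and 3 in NOD, where 2.46% and 4.16% of all genes rose, and 0 that fell in either. The gene in NOD.scid was Nfkbia, which encodes the inhibitor IkB-alpha and is itself an NF-kB target. Its log2 values were 5.71 and 5.83 in NOD, 5.73 and 5.72 in NOD.scid mice, 5.94 and 5.82 in BDC2.5/NOD, and 6.81 and 6.33 in BDC2.5/NOD.scid. Both BDC2.5/NOD.scid arrays were above all others. The difference was 0.84 in NOD.scid (SE 0.133, 1.79-fold, adjusted p = 0.00195 in limma) and 0.11 in NOD (adjusted p = 0.688), and the difference between them was 0.73 (adjusted p = 0.0468), which passed under 5 of 14 alternatives. A second Nfkbia probe set gave 0.93 in NOD.scid and 0.80 for the interaction, both past the threshold. Within arrays of low and high actin value, the difference was 1.09 and 0.60.

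In NOD 3 genes of the NF-kB list rose, Relb, Nfkb2 and Bcl3. RelB and the Nfkb2 product are the partners of the non-canonical NF-kB pathway that several TNF family receptors feed, and BCL3 is a nuclear IkB protein. Relb was 4.64 and 4.62 in NOD, 4.64 and 4.68 in NOD.scid mice, 5.13 and 5.14 in BDC2.5/NOD, and 4.92 and 4.80 in BDC2.5/NOD.scid. All arrays with the transgene were higher than all without, and BDC2.5/NOD was the highest group. Relb rose by 0.50 in NOD (SE 0.093, adjusted p = 0.00571 in limma), against 0.20 in NOD.scid (adjusted p = 0.291). Within the arrays of low actin value the NOD difference was 0.51, from 2 arrays against 1. A second Relb probe set differed by 0.11 in NOD and did not pass. A second probe set of Rela, also on the list and dim at a mean of 2.83, rose by 0.47 in NOD (adjusted p = 0.00826 in limma). It differed by -0.69 in BDC2.5/NOD.scid against BDC2.5/NOD (adjusted p = 0.000617 in limma). Its interaction was -0.61 (adjusted p = 0.0203 in limma). The brighter Rela probe set, which stood for the gene, did not pass in any of these comparisons.

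Nfkb2 was 4.45 and 4.63 in NOD and 5.13 and 5.10 in BDC2.5/NOD, a rise of 0.58 (SE 0.126, adjusted p = 0.0154 in limma). In NOD.scid it was 4.99 and 4.66, overlapping BDC2.5/NOD.scid at 4.83 and 5.04. Bcl3 rose by 0.35 in NOD (adjusted p = 0.0462 in limma). The interaction did not pass for Relb (-0.30, adjusted p = 0.27), Nfkb2 (-0.47, adjusted p = 0.191) or Bcl3 (-0.22, adjusted p = 0.479), so a difference between backgrounds was not shown for them. All 3 calls were lost when either BDC2.5/NOD array was left out, with limma's adjusted p reaching 0.0709, 0.134 and 0.245, and those of Nfkb2 and Bcl3 also without NOD replicate 1, that of Bcl3 also without NOD replicate 2 and with quantile normalization, centred array medians, a replicate block or no variance trend. The fibroblast list was lowest on the same BDC2.5/NOD arrays, and its part in these differences was not tested. Tank, a TRAF-binding regulator of the pathway, fell with scid by 0.55 without the transgene (adjusted p = 0.0134 in limma) and by 0.44 with it (adjusted p = 0.0166 in limma). The first call was lost without either NOD array or NOD.scid replicate 2, and with only the arrays compared (adjusted p = 0.0558 in limma). The second was lost without either BDC2.5/NOD array or BDC2.5/NOD.scid replicate 1.

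**Figure D4:**
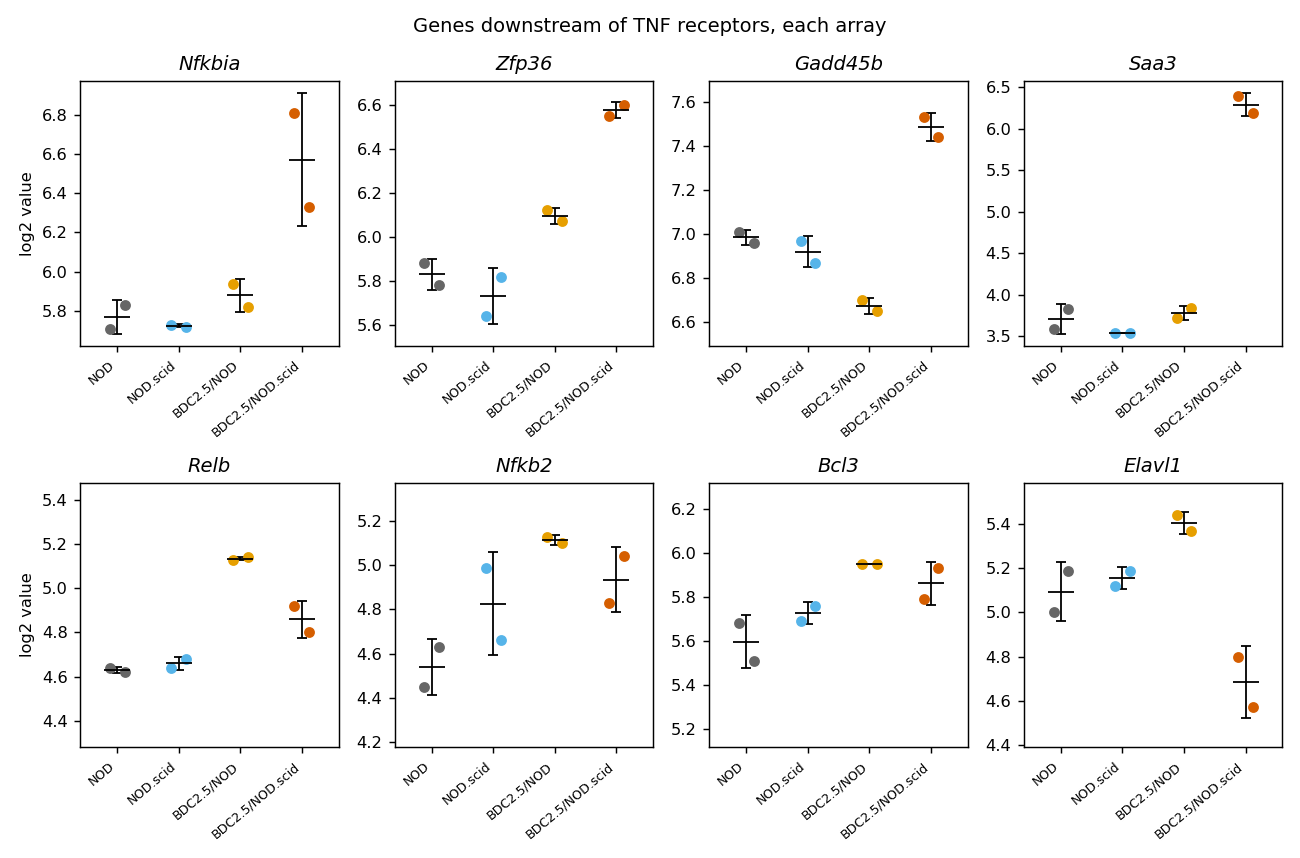
Log2 values of 8 genes downstream of TNF receptors on each array, with the group mean and SD (n = 2 arrays per group) as bars; the vertical axes do not start at 0. Nfkbia, Zfp36, Gadd45b and Saa3 are highest on both BDC2.5/NOD.scid arrays, Elavl1 is lowest there, and Relb is highest on both BDC2.5/NOD arrays.

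The list for release of TNF and control of its mRNA had 6 genes, all measured. Zfp36 encodes tristetraprolin, which binds AU-rich elements of Tnf mRNA and promotes its decay. Its log2 values were 5.88 and 5.78 in NOD, 5.64 and 5.82 in NOD.scid mice, 6.12 and 6.07 in BDC2.5/NOD, and 6.55 and 6.60 in BDC2.5/NOD.scid, without overlap between arrays with and without the transgene. It rose by 0.84 in NOD.scid (SE 0.0945, adjusted p = 0.000144 in limma), against 0.26 in NOD (adjusted p = 0.113), and the interaction was 0.58 (adjusted p = 0.0283), which passed under 6 of 14 alternatives. Within the actin sets the NOD.scid difference was 0.73 and 0.95.

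Elavl1 encodes HuR, which binds the same kind of element and stabilises mRNA. It was 5.0 and 5.19 in NOD, 5.12 and 5.19 in NOD.scid mice, 5.44 and 5.37 in BDC2.5/NOD, and 4.80 and 4.57 in BDC2.5/NOD.scid. The 2 BDC2.5/NOD.scid arrays were the lowest and the 2 BDC2.5/NOD arrays the highest. It fell by 0.47 with the transgene in NOD.scid (adjusted p = 0.0219 in limma) and was 0.31 higher in NOD (adjusted p = 0.102), with an interaction of -0.78 (adjusted p = 0.0125). Within the actin sets the NOD.scid difference was -0.39 and -0.55. The fall in NOD.scid lost its call without either BDC2.5/NOD array, without BDC2.5/NOD.scid replicate 2 or without either NOD.scid array. It was also lost with only the arrays compared (adjusted p = 0.0746 in limma). Adam17, the protease that releases TNF from the membrane, Adam10, Timp3 and Furin did not pass the threshold in any of the 5 comparisons.

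Of the genes that TNF is known to induce, 29 of 31 were measured. In NOD.scid 4 rose with the transgene and 0 fell, where 2.46% of all genes rose and 4.51% fell. They were Saa3, Gadd45b, Ccl5 and Nfkbia, and Nfkbia is the same gene as on the NF-kB list. The list median was 0.18 against -0.01 over all genes. In NOD 1 rose, Junb, and 1 fell, Gadd45b, near the shares over all genes of 4.16% and 4.56%, with a list median of 0.03 against 0.04. Saa3, an acute-phase serum amyloid gene, had the largest rise. It was 3.54 to 3.84 on the 6 other arrays and 6.39 and 6.19 in BDC2.5/NOD.scid, a difference from NOD.scid of 2.75 (SE 0.115, 6.72-fold, adjusted p = 1.28e-08 in limma). The interaction was 2.68 (adjusted p = 1.1e-06). Within the actin sets the NOD.scid difference was 2.85 and 2.65 for Saa3, 0.66 and 0.47 for Gadd45b, and 0.60 and 0.73 for Ccl5.

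Gadd45b, a stress gene that restrains JNK signalling, was 7.01 and 6.96 in NOD, 6.97 and 6.87 in NOD.scid mice, 6.70 and 6.65 in BDC2.5/NOD, and 7.53 and 7.44 in BDC2.5/NOD.scid. It rose by 0.56 with the transgene in NOD.scid (adjusted p = 0.00156 in limma) and fell by 0.31 in NOD (adjusted p = 0.0478 in limma), with an interaction of 0.87 (adjusted p = 0.00138). A second Gadd45b probe set had the same signs, at 1.77 and -0.65, both past the threshold. The fall in NOD lost its call when any of the 4 NOD and BDC2.5/NOD arrays was left out. It was also lost with a replicate block or no variance trend (adjusted p = 0.0714 and 0.0658 in limma). Ccl5, a chemokine of T cells and macrophages, rose by 0.66 in NOD.scid (adjusted p = 0.00182 in limma), with an interaction of 0.87 (adjusted p = 0.00521). Irf1, an interferon-response factor, was higher in BDC2.5/NOD.scid than in BDC2.5/NOD by 0.43 (adjusted p = 0.0358 in limma), a call lost without either BDC2.5/NOD array or BDC2.5/NOD.scid replicate 1 and with a replicate block (adjusted p = 0.0618). Junb, an AP-1 subunit, rose by 0.51 in NOD (adjusted p = 0.02 in limma), a call lost when any of the 4 arrays compared was left out. A second Junb probe set rose by 0.64 in NOD and also by 0.50 in NOD.scid (adjusted p = 0.0264 in limma). Its interaction was -0.14 (adjusted p = 0.763 in limma), so a rise particular to NOD was not shown. The macrophage list mean was highest on the same BDC2.5/NOD.scid arrays, and its part in these differences was not tested.

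Of 17 death branch genes measured, 0 rose and 0 fell with the transgene in NOD.scid by limma, with 1 at an unadjusted p under 0.05. Over all genes 2.46% rose, 4.51% fell and 18.7% had an unadjusted p under 0.05. In NOD 1 of the 17 fell and 0 rose, against 4.56% and 4.16% of all genes. This was Xiap, an inhibitor of caspases, which fell by 0.56 in NOD (adjusted p = 0.0386 in limma) and was higher by 0.65 in BDC2.5/NOD.scid than in BDC2.5/NOD (adjusted p = 0.0162 in limma), but its 2 other probe sets differed by 0.06 and 0.04 in NOD and by 0.12 and 0.04 between the transgenic groups. Mcl1, an anti-apoptotic BCL2 relative, fell by 0.50 in NOD.scid against NOD (adjusted p = 0.0195 in limma) and had an interaction of 0.63 (adjusted p = 0.0209). Of 11 kinase branch genes, 1 rose in NOD, where 4.16% of all genes did. It was Mapkapk2, a kinase downstream of p38, which rose by 0.39 in NOD (adjusted p = 0.042 in limma), and by 0.64 in a second probe set. Atf2, a transcription factor that both kinases activate, was lower by 0.53 on the log2 scale in BDC2.5/NOD.scid than in BDC2.5/NOD (adjusted p = 0.0232 in limma), where a second probe set gave 0.14. Each of these calls of Xiap, Mcl1, Mapkapk2 and Atf2 was lost when either BDC2.5/NOD array was left out. All were also lost without at least 1 array of another group, and over all alternatives limma's adjusted p reached 0.243 for Xiap, 0.149 for Mcl1, 0.319 for Mapkapk2 and 0.256 for Atf2. The Xiap call in NOD was also lost with a replicate block (adjusted p = 0.0653 in limma). The Mcl1 fall was also lost with only the arrays compared (adjusted p = 0.0725), and the Mapkapk2 rise with centred array medians (adjusted p = 0.0625).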

How the data were processed

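Whole-pancreas RNA was measured on 8 Affymetrix arrays. Per the labels, RNA was isolated with GITC and about 10 ug of total RNA was used per array. The authors deposited 1 table of log values, taken as log2 because they reached at most 13.78. No source here states how the authors summarised and normalized probes, and the deposited log2 values were used as they stood. Of the 12422 tested probe sets, the platform annotation named 10833 with 1 symbol and 396 with several, and left 1193 unnamed. Only single symbols were named, so Tnfsf12, whose probe set carries a further symbol, was left out.

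A limma model (version 3.58.1, R 4.3.3) of group means with a variance trend used all 8 arrays, leaving 4 residual degrees of freedom beside 8.07 from the prior. Tests were two-sided, with a threshold of 0.05 after Benjamini-Hochberg adjustment. The 5 comparisons were each background's transgene difference, the scid difference with and without the transgene, and the interaction. The members and all gene lists were chosen with earlier results of these data known. Members past the threshold and Tnf, Tnfrsf1b, Tnfrsf18 and Traf4 were named with every array's value, and up to 4 pathway genes by smallest p per list and comparison. Values given for Tnfrsf4, Tnfrsf21, Tnfrsf8, Cd40, Fas and other members beyond this rule were added after their values were seen. The fit was tested on simulated data, where 6.16% of calls were false. Alternatives were median centring, quantile normalization, no variance trend, only the arrays compared, a filter on dim probe sets, any probe set of a gene, the actin split as a term, a replicate block, and leaving out each array.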

Additional observations from a re-analysis of the deposited data

Results flagged for a closer look

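None of the 32 TNF family genes was picked out by a test of the difference between the transgene effects in NOD.scid and NOD. Of the 79 pathway genes, 7 were, each by the interaction term in limma (adjusted p under 0.05), with values on the log2 scale as the NOD.scid effect minus the NOD effect. Saa3 had an interaction of 2.68, Gadd45b of 0.87, Ccl5 of 0.87, Nfkbia of 0.73, Mcl1 of 0.63 and Zfp36 of 0.58, and Elavl1 had -0.78. For Saa3, Gadd45b and Ccl5 the interaction passed the threshold under every alternative run for them (14, 14 and 13). For Nfkbia it passed under 5 of 14, for Zfp36 under 6 of 14, for Mcl1 under 9 of 14 and for Elavl1 under 11 of 14. Over all genes 2.48% were higher and 2.90% lower in the interaction. The macrophage and monocyte list had 5 of 14 genes higher in it, and its part in these values was not tested.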

How the results depend on the processing

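Counts of family genes past the threshold depended on the setting, and the cause was not tested except where the filter on dim probe sets left 16 of the 32 genes. With the transgene in NOD.scid the count was 1, 2 with the actin split as a term (Tnfrsf1b and Tnfrsf21), 0 without dim probe sets, and 0 to 1 when an array was left out. In NOD it was 0, 2 with the actin term (Tnf and Tnfrsf18), 1 with only the arrays compared (Tnf), 1 without dim probe sets (Tnfrsf18) and 0 to 0 without an array. With scid and the transgene it was 1, 2 with the actin term (Tnfrsf1b and Tnfrsf8), and 0 to 1 without an array, but the gene was Tnfrsf8, lower, without dim probe sets and Tnf, lower, without BDC2.5/NOD.scid replicate 2. In the averaged comparison it was 3, and 1 to 3 without an array, where Cd40 and, lower, Traf4 were the genes without BDC2.5/NOD replicate 1. Tnfrsf4 passed there without NOD.scid replicate 2 and without dim probe sets.

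Pathway counts in NOD were 7, 11 with the actin term and 0 to 9 without an array (0 without either BDC2.5/NOD array). For scid without the transgene they were 2, 0 with only the arrays compared, 1 without dim probe sets, 4 with any probe set and 0 to 2 without an array. For scid with the transgene they were 10, and 4 to 11 without an array (4 without either BDC2.5/NOD array). For the interaction they were 7, 11 with any probe set and 3 to 6 without an array. For the transgene in NOD.scid they were 6, and 5 to 7 without an array.

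Whether arrays pair across groups is not known. Deviations of same-numbered arrays correlated between -0.32 and 0.29 over pairs of groups. The highest value joined NOD.scid and NOD, where replicate 1 was the array high in actin in both. The lowest joined BDC2.5/NOD.scid and NOD, whose high arrays differ in number. Replicate 2 is only a title without a number, so neither this check nor a replicate block could exclude pairing in another order. With a replicate block, the family count of the averaged comparison fell to 1 and the pathway count in NOD to 4, and no family count changed in the 5 planned comparisons.

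Signs turned for differences near 0 that passed no threshold. Leaving out arrays in turn, Tnf with the transgene in NOD.scid ranged from -0.26 to 0.15, Tnfrsf1b with the transgene in NOD from -0.07 to 0.27 and for scid without it from -0.06 to 0.28, Tnfrsf21 for scid without the transgene from -0.15 to 0.09, Tnfrsf18 for scid with it from -0.04 to 0.13, and the interactions of Tnfrsf18 from -0.12 to 0.05 and of Traf4 from -0.12 to 0.30. The Tnfrsf18 interaction was 0.02 with quantile normalization. Leaving out BDC2.5/NOD.scid replicate 2 brought Tnf past the threshold for scid with the transgene, at -0.50 (limma adjusted p = 0.0337).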
